A study of Arabidopsis thaliana with 42 samples.

Results

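The 364 Arabidopsis thaliana genes described here were those with less transcript in nitrate-treated than in chloride-treated wild-type seedlings. They were chosen on counts-per-million values (CPM, a gene's read count divided by all gene counts of its library, times 1e6). A gene entered when its mean over the 3 wild-type chloride libraries was at least 5 CPM, its mean over the 3 wild-type nitrate libraries was at most 0.5 of that, and its highest nitrate value lay below its lowest chloride value. Organellar loci and 2 nuclear loci were left out by the rule. Of 37336 loci in the count files, 14202 nuclear loci reached 5 CPM in the chloride libraries, and the 364 members were 2.56% of these. The same rule with chloride and nitrate exchanged took 129 loci. The wild-type difference is therefore what chose the genes, and it was inflated by that choice. What the members did in the mutants and in protoplasts did not enter the rule.

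The series measured RNA by sequencing in whole 7-day-old seedlings and in leaf protoplasts. Seedlings were wild type (Col-0), the nlp2,4,5,6,7,8,9 septuple mutant or chl1-5. All had grown in liquid basal medium under constant light where ammonium succinate at 2.5 mM supplied the nitrogen, were washed, and then received 10 mM of salt for 20 min, with 3 libraries per genotype and salt. The library names give the salts as K and N, read here as KCl, the control, and KNO3, from the treatments the protocols describe. The labels state 10 seedlings per well for wild type and the septuple mutant and describe chl1-5 culture separately without that number, and they do not say whether the genotypes were grown or sequenced together. Protoplasts came from 3- to 4-week-old soil-grown Col-0 plants and transiently expressed 1 of NLP1 to NLP9, with 2 libraries each. A shared control served NLP1, NLP2, NLP3, NLP5, NLP8 and NLP9, another served NLP4 and NLP6, and NLP7 had its own. The labels do not say that replicates came from separate cultures, so p-values measure the spread between these libraries, which may be technical.

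NIN-LIKE PROTEINs (NLPs) are transcription factors that act downstream of nitrate in plants, and NLP7 binds nitrate and is retained in the nucleus when nitrate is supplied. CHL1, also named NRT1.1, is a nitrate transporter of the plasma membrane that also acts as a nitrate sensor, and chl1-5 is a deletion allele of it. Most early nitrate genes are known for rising, such as those for nitrate and nitrite reductase, and fewer are known to decline. Some members belong to families known for defence, jasmonate and detoxification. JAZ proteins repress jasmonate signalling, WRKY factors bind the W-box in promoters of defence genes, and glutathione S-transferases couple glutathione to reactive compounds.

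W-boxes, read here as TTGACC or TTGACT on either strand, lay within the 250 bases before the annotated start of 144 of the 364 members (39.6%), against 28.1% of the promoters of loci that reached 5 CPM and 27.5% of all nuclear promoters. The 3 promoters below are printed because they are among those of the 13 members with 3 W-boxes each. They are RefSeq TAIR10.1 sequences on the minus strand at chr1:659981-660230 (GSTF7), chr3:19442428-19442677 (PUB22) and chr1:9143337-9143586 (AT1G26420), read 5′ to 3′ towards the gene, with W-boxes of either strand in capitals.
GSTF7: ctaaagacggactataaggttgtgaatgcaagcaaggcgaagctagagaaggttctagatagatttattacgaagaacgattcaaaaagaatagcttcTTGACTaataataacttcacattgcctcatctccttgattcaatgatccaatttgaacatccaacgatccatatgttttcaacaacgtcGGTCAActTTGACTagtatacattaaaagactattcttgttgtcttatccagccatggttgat
PUB22: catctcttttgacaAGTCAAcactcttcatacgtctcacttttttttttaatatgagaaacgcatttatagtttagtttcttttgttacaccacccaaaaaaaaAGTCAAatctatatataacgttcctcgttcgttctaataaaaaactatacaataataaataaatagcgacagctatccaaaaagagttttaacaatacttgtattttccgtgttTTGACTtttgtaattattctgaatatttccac
AT1G26420: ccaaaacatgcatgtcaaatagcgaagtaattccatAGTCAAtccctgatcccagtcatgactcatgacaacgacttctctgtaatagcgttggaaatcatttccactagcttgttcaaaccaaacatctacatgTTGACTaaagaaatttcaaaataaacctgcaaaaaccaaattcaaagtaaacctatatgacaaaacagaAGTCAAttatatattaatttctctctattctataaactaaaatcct
A match is a run of letters in the window, not a site shown to be bound. Of the other 4 motifs searched on both strands, CGCGTT, a calmodulin-binding transcription activator motif, was in 4.95% of member promoters and 2.77% of promoters of loci at 5 CPM or more. GCCGCC, bound by ethylene response factors, was in 2.47% against 1.92%. The G-box CACGTG was in 7.42% against 7.51%, and GAATCT, a form of the GAATC box bound by NIGT1 repressors, was in 15.7% against 16.2%. In nitrate, 22.9% of the members with a W-box and 20.9% of those without were called lower in chl1-5 than in the septuple mutant. In protoplasts the shares called lower than control were 26.4% and 21.4% with NLP9, and 23.3% and 16.3% in the group labelled NLP5. The gap went the other way with NLP1 and in the groups labelled NLP4 and NLP6 (3.88% and 6.12% for NLP6). None of these gaps was tested.

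Seedling libraries held 18.3 to 59.7 M gene counts (M, units of 1e6) and protoplast libraries 5.64 to 27.7 M. A floor of 3 counts was 0.0502 to 0.164 CPM in the seedling libraries and covers counting error only. NRT1.1 was at 49.7 to 90.9 CPM in the 6 chl1-5 libraries, 355 to 572 in the septuple mutant and 489 to 917 in wild type. In the septuple mutant NLP8 had 0 counts in all 6 libraries and NLP2 was at 0 to 3.83 CPM against 7.09 to 19.1 in wild type, while NLP4, NLP6 and NLP7 transcripts overlapped wild type. Among protoplasts, 4 libraries went against their label. The library labelled NLP4 replicate 1 held 29.5 CPM of NLP4 and 13202 CPM of NLP1, and that labelled NLP6 replicate 1 held 14.9 CPM of NLP6 and 43118 CPM of NLP4. The library labelled NLP5 replicate 2 held 434 CPM of NLP5 and 41881 CPM of NLP8, and that labelled NLP8 replicate 2 held 328 CPM of NLP8 and 58391 CPM of NLP5. Both libraries of the control shared by 6 NLPs differed by about the sampling noise (chi-square 1.01 per gene over 16985 genes) and were counted as 1 sample. Groups are named by their labels below, so those of NLP4, NLP5, NLP6 and NLP8 each hold 1 library with another NLP. The groups labelled NLP5 and NLP8 thus both hold 1 library of NLP5 and 1 of NLP8.

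The members' summed level was 6784 to 9898 CPM in the 3 chloride-treated wild-type libraries and 3034 to 3952 CPM in the 3 nitrate-treated ones, a difference that the rule itself fixed. In the septuple mutant the sum was 6089 to 9456 CPM in chloride and 7972 to 9721 CPM in nitrate, so the salts overlapped there and both stayed near the chloride level of wild type. In chl1-5 it was 2929 to 4932 CPM in chloride and 3280 to 4477 CPM in nitrate, and all 6 chl1-5 libraries lay below every septuple library. Without the 10 members that took the most reads the sums kept this order, with 4391 to 7002 CPM across the septuple libraries and 2469 to 3971 CPM across the chl1-5 libraries. In bulk RNA, fewer cells of a type and less RNA per cell cannot be told apart. Marker lists of cell types differed between the mutants as well, in both directions. For mesophyll the sum of 8 photosynthesis genes was 31521 to 44251 CPM in the septuple libraries and 63994 to 79416 CPM in the chl1-5 libraries. In wild type it was 38979 to 50491 CPM in chloride and 60672 to 73205 CPM in nitrate. The sum of 12 root markers was 4419 to 6196 CPM in the septuple libraries and 2792 to 4304 CPM in the chl1-5 libraries, and that of 8 vasculature markers 458 to 524 CPM and 213 to 421 CPM. By CPM, which is not rescaled between libraries, root and vasculature sums were thus higher in every septuple library, as the members' sum was. In wild type they were 3044 to 4300 CPM and 330 to 409 CPM. The tests below rescale libraries by edgeR's trimmed mean of M-values, with factors of 0.834 to 0.913 in chl1-5 and 0.945 to 1.19 in the septuple mutant. An order of marker sums in CPM need not hold on that scale, and marker calls are given with those tests. Sums of 7 guard cell markers (46.5 to 70.2 and 25.5 to 55.5 CPM) and 6 epidermis markers (1626 to 2252 and 2054 to 2445 CPM) overlapped between the mutants. No marker gene was at 0 in all libraries of a genotype, all lists share the library total with the members, and their part in the results was not tested.

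**Figure D1:**
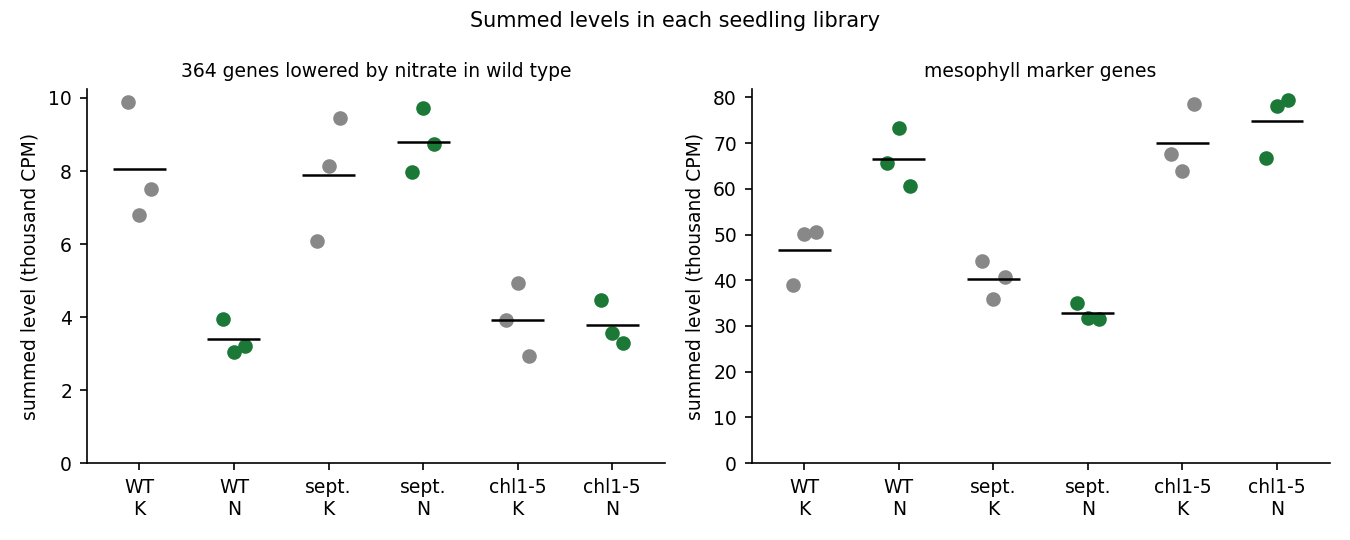
Summed level (CPM divided by 1000) of the 364 members on the left and of 8 mesophyll markers on the right in each seedling library (points, with lines at the mean of 3), by genotype and salt (K grey, N green). For the members, wild-type chloride libraries (6784 to 9898 CPM) chose the genes against wild-type nitrate libraries (3034 to 3952 CPM). Septuple libraries of both salts sit between 6089 and 9721 CPM and chl1-5 libraries of both salts between 2929 and 4932 CPM.

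In wild type, as a description with no test, the share of loci that entered the set was largest at low levels. Of loci at 5 to 10 CPM in chloride 5.08% entered, and of those at 100 CPM or more 0.484%. Members' median gene length in the RefSeq annotation was 2252 bases against 2559 for all loci at 5 CPM or more. The threshold cases were close on both sides: for AT1G50740 nitrate was 0.4999 of chloride and for AT1G04340, just outside, 0.5001. At the 5 CPM limit AT2G21840 entered at 5.008 CPM and AT1G21790 stayed out at 4.985 CPM. The frataxin gene FH entered with a lowest chloride value of 4.453 CPM against a highest nitrate value of 4.449 CPM, and AT1G62870 stayed out at 3.675 against 3.679 CPM.

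Which genes entered depended on the scaling and on single libraries. Over all loci at 5 CPM or more the median log2 ratio of nitrate to chloride was -0.29 on the CPM scale, and with CPM rescaled by edgeR's trimmed mean of M-values (TMM) the rule took 108 loci, of which 106 were members (29.1% of the 364). Leaving out 1 wild-type library and applying the same rule took 321 loci without nitrate replicate 2 and 1431 without nitrate replicate 1, and these held 255 and 331 of the members. It took 1191 loci without chloride replicate 2 and 551 without nitrate replicate 3, which held 329 and 294 members. Without chloride replicate 1 it took 349 loci and held the fewest members, 217 of the 364. In the fit over all 18 seedling libraries with edgeR's quasi-likelihood test, 20 members were called lower in nitrate at an adjusted p of 0.05 and 0 higher, with 0.108% of the 21229 genes called lower and 0.617% higher. The authors' deposited table called 128 members lower of 362 with an adjusted p. Nothing is read from these counts, since the rule used the same libraries.

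Among members whose wild-type ratios were lowest was MYB15, an R2R3-MYB transcription factor of cold and lignin responses, at 4.06, 6.53 and 16.6 CPM in chloride and 2.56, 1.48 and 0.0328 CPM in nitrate. GSTF6 was at 663, 205 and 276 CPM in chloride and 146, 135 and 113 CPM in nitrate. Its chloride replicate 1 stood well above the other 2, as it did for GSTF7 (706, 133 and 151 CPM), the 9-lipoxygenase gene LOX1 (280, 125 and 99.6 CPM) and CYP82C2 (197, 62.7 and 38.2 CPM), a P450 of indolic defence compounds. WRKY18, a regulator of basal defence, was high in another library, at 76.4, 78.8 and 149 CPM in chloride against 66.0, 34.5 and 32.8 CPM in nitrate.

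In the septuple mutant, nitrate against chloride, no member was called. With edgeR's quasi-likelihood test, 0 members were called lower and 0 higher, with 0% of all genes called in either direction. At an unadjusted p below 0.05, 2 members were lower and 3 higher (1.26% and 0.806% of all genes were), DESeq2 called 0, and the authors' deposited table called 0 members. The median log2 fold change of the members was 0.12, against 0.006 over all genes tested. It was negative for 117 members (32.1%), against 49.3% of all genes, and the members between the 10th and 90th percentile ran from -0.25 to 0.49. By CPM alone, all 3 nitrate libraries lay below all 3 chloride libraries for 3 members (0.824%, against 2.51% of loci at 5 CPM or more), and above them for 55 (15.1%, against 10.9%). Only 1 member was lower without overlap by at least 2-fold (0.0352% of loci at 5 CPM or more were).

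The values of single genes overlapped or did not pass the test. JAZ1 was at 129, 199 and 160 CPM in chloride and 126, 221 and 136 CPM in nitrate in the septuple mutant, with full overlap. WRKY18 was at 54.4, 82.8 and 82.7 CPM in chloride and 80.3, 139 and 92.5 CPM in nitrate, so that 2 of 3 nitrate libraries lay above all chloride libraries. The most negative fitted change belonged to PXMT1, a methyltransferase gene, at 3.4, 5.4 and 9.17 CPM in chloride and 3.34, 1.07 and 1.74 CPM in nitrate. Its groups did not overlap, though 1 chloride and 1 nitrate library lay close together, and its log2 fold change of -1.62 ± 0.69 (SE) had an adjusted p of 1. AT4G37240, a gene of unnamed function, was at 31.4, 29.1 and 21.7 CPM in chloride and 18.5, 13.7 and 20.2 CPM in nitrate, also without overlap (-0.81 ± 0.29, adjusted p = 1).

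In chl1-5 no member was called either. With edgeR 0 members were lower and 0 higher, with 0.00471% of all genes called lower and 0.118% called higher. At an unadjusted p below 0.05, 12 members were lower and 18 higher, against 2.77% and 3.68% of all genes. DESeq2 called 1 member lower, and the authors' deposited table called 0. The median log2 fold change was 0.01 for the members and 0.0006 for all genes, and it was negative for 176 members (48.4%, against 49.3% of all genes). All 3 nitrate libraries lay below all 3 chloride libraries for 11 members (3.02%, against 4.01%) and above them for 15 (4.12%, against 3.47%). They were lower without overlap by at least 2-fold for 6 members (1.65%, against 0.444%). The test of the difference between the nitrate effects of chl1-5 and the septuple mutant called 0 members lower and 0 higher, with 0% and 0.033% of all genes called, and 12 and 4 members at an unadjusted p below 0.05, against 2.16% and 2.05% of all genes. Its median was -0.09 for the members and 0.02 for all genes, and it was negative for 219 members (60.2%, against 48.2%). DESeq2 called 0 there as well.

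In chl1-5, the JAZ genes overlapped between the salts. JAZ1 was at 109, 134 and 68.5 CPM in chloride and 99.6, 85.8 and 76.2 CPM in nitrate, and JAZ6 at 67.5, 58.3 and 45.2 CPM against 45.8, 41.6 and 40.7 CPM. In both cases the highest nitrate value exceeded the lowest chloride value, and JAZ6 had a log2 fold change of -0.39 ± 0.21 (SE) and an adjusted p of 0.83. The most negative fitted change was that of AT3G44870, a methyltransferase-family gene, at 0.617, 2.30 and 0 CPM in chloride and 0, 0.0398 and 0 CPM in nitrate. It lies beside its close copy FAMT, so reads could be split between them, and at such counts a fitted fold depends on the prior count and none is given.

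**Figure D2:**
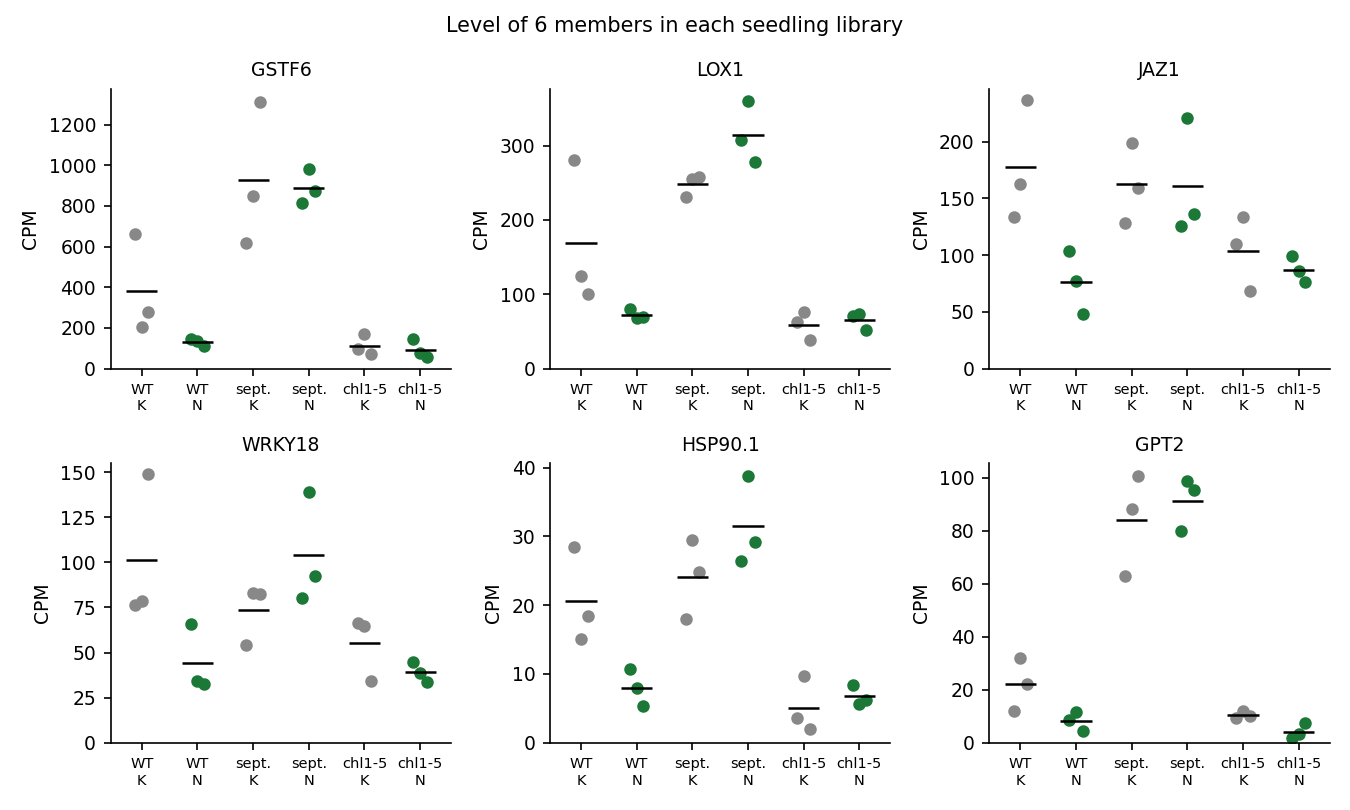
CPM of GSTF6, LOX1, JAZ1, WRKY18, HSP90.1 and GPT2 in each seedling library (points, with lines at the mean of 3) by genotype and salt (K grey, N green). For GSTF6, LOX1, HSP90.1 and GPT2 every chl1-5 library lies below every septuple library, for example 56.7 to 169 against 619 to 1313 CPM for GSTF6.

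The members differed in level between the mutants within each salt. The contrast sets mutant against mutant, while its scaling and spread come from the fit of all 18 seedling libraries, wild type included. In chloride, 50 members were called lower in chl1-5 than in the septuple mutant and 5 higher (13.7% and 1.37% of 364), where 4.78% of all genes were called lower and 4.93% higher. The median log2 fold change was -0.53, against -0.06 over all genes, and it was negative for 302 members (83%, against 53.4%). In nitrate, 79 members were called lower and 4 higher (21.7% and 1.1%), where 8.15% of all genes were called lower and 9.89% higher. The median there was -0.61 against -0.10, and it was negative for 314 members (86.3%, against 54.7%). In CPM, all chl1-5 libraries lay below all septuple libraries for 136 members in chloride (37.4%, against 25.2% of loci at 5 CPM or more) and 239 in nitrate (65.7%, against 48.5%). In both salts 37 members were called lower and 3 higher, for which the share of all genes is not given.

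Fitted on the groups compared alone, the counts were 27 lower and 3 higher in chloride (7.42% and 0.824%, against 2.36% and 2.95% of all genes) and 104 and 5 in nitrate (28.6% and 1.37%, against 11.7% and 13.7%). They also moved with single libraries. In chloride the 50 members called lower became 29 without septuple replicate 2, 31 without septuple replicate 3, 30 without chl1-5 replicate 1 and 26 without chl1-5 replicate 3, and 77 without chl1-5 replicate 2. In nitrate the 79 became 35 without septuple replicate 2, 48 without septuple replicate 3 and 47 without chl1-5 replicate 3. Shares of all genes called without each library are not given here. A change particular to the members therefore cannot be told apart from a change in all calls. Genotype cannot be told apart from any culture or batch difference between the mutants. Of the 8 mesophyll markers, 7 were called higher in chl1-5 in chloride and 7 in nitrate. Of the 12 root markers 0 were called lower, with 0 higher in chloride and 4 in nitrate, and of the 8 vasculature markers 2 were lower in chloride and 1 lower and 1 higher in nitrate. Of the 106 members that the rule also took after TMM scaling, a subset chosen after seeing the data, 17 were called lower in chloride (16.0%) and 25 in nitrate (23.6%), with 1 higher in each.

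**Figure D3:**
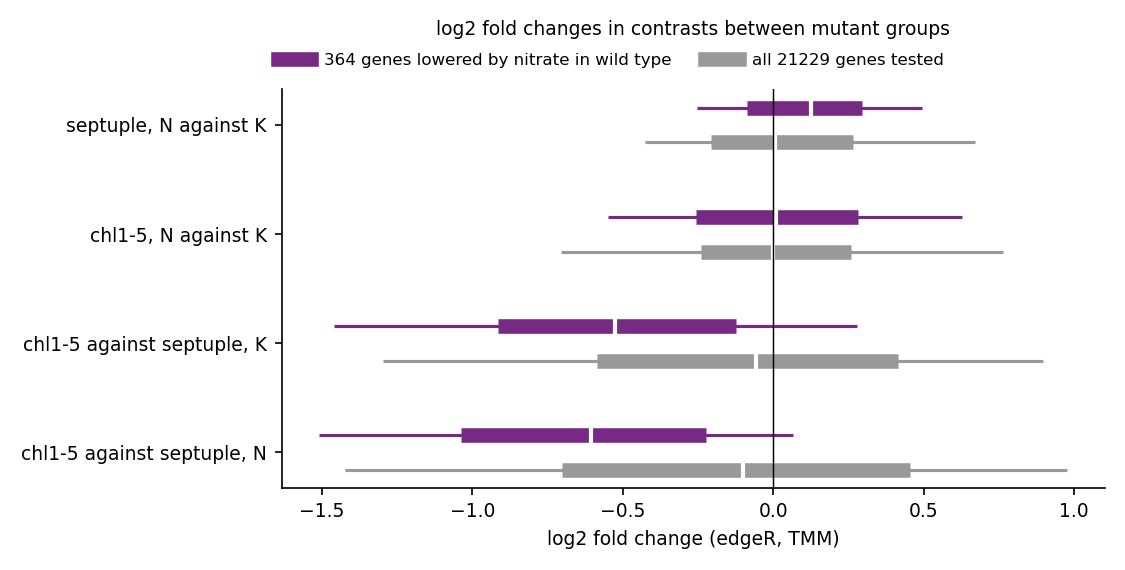
Distribution over the 364 members and over all genes tested of the log2 fold change for nitrate against chloride in each mutant and for chl1-5 against the septuple mutant in each salt. Thin bars span the 10th to 90th percentile, thick bars the quartiles and ticks the median. The members' medians are 0.12 and 0.01 for nitrate in the septuple mutant and chl1-5, and -0.53 and -0.61 for chl1-5 against the septuple mutant.

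Set beside chloride-treated wild type, as values only because those libraries chose the genes, the members' median ratio was 0.848 for the septuple mutant in chloride and 0.976 in nitrate. It was 0.473 for chl1-5 in chloride and 0.465 in nitrate. Over all loci at 5 CPM or more the medians were 0.934, 1.01, 0.765 and 0.755. At most 0.5 of the wild-type chloride level was reached by 30 members (8.24%, against 3.95% of these loci) in the septuple mutant in chloride and 10 (2.75%, against 1.58%) in nitrate. In chl1-5 it was reached by 204 (56.0%, against 17.9%) and 205 (56.3%, against 18.8%). The mean of the wild-type chloride libraries had to be high for a gene to enter, so a lower value elsewhere is partly fixed by the choice.

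Glutathione S-transferases made up 8 members of 32 such genes at 5 CPM or more (25%), a family picked out after its values were seen. Their summed level was 796 CPM in chloride-treated and 249 CPM in nitrate-treated wild type, 1414 and 1329 CPM in the septuple mutant, and 191 and 176 CPM in chl1-5. In chl1-5, 6 of the 8 were called lower than in the septuple mutant in chloride and 6 in nitrate. GSTF6 was at 619, 848 and 1313 CPM in chloride and 815, 982 and 874 CPM in nitrate in the septuple mutant. In chl1-5 it was at 94.4, 169 and 69.3 CPM in chloride and 146, 76.8 and 56.7 CPM in nitrate. No septuple library overlapped a chl1-5 library, and the ratio of the means was 8.36 in chloride and 9.57 in nitrate.

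By edgeR, GSTF6 was lower in chl1-5 by a log2 fold change of -2.77 ± 0.35 (SE, adjusted p = 1.2e-05) in chloride and -2.83 ± 0.35 (adjusted p = 4.3e-06) in nitrate. GSTF7, its neighbour on chromosome 1 and near-identical in sequence, changed by -2.69 ± 0.44 (adjusted p = 0.00024) and -2.25 ± 0.43 (adjusted p = 0.00065). Reads of the pair could be split by the counting, so which of the 2 carries the difference is uncertain. GSTU8, a tau-class enzyme, was at 21.5, 35.2 and 41.3 CPM in the septuple mutant and 10.7, 17.9 and 6.28 CPM in chl1-5 in chloride. Its groups did not overlap, and its log2 fold changes were -1.20 ± 0.28 (adjusted p = 0.0065) and -1.33 ± 0.27 (adjusted p = 0.0013). Without chl1-5 replicate 3 the adjusted p in chloride was 0.0514. GSTU10 and GSTU6 were not called in either salt.

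Other members also differed between the mutants. GPT2, a glucose 6-phosphate/phosphate translocator of the plastid envelope, was at 63.1, 88.4 and 101 CPM in chloride and 79.8, 98.9 and 95.5 CPM in nitrate in the septuple mutant. In chl1-5 it was at 9.21, 11.9 and 10.1 CPM in chloride and 1.82, 3.35 and 7.48 CPM in nitrate. All septuple libraries were therefore above not only chl1-5 but also chloride-treated wild type (11.9, 32 and 22.1 CPM). Its log2 fold change between the mutants was -2.71 ± 0.41 (adjusted p = 9.8e-05) in chloride and -3.96 ± 0.43 (adjusted p = 6.9e-07) in nitrate, a ratio of means of 21.7 in nitrate.

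JAL23, a jacalin-related lectin, had the same order, at 31.7, 15.6 and 28.7 CPM in chloride-treated septuple seedlings against 7.03, 2.75 and 1.38 CPM in chl1-5. In nitrate it was at 35.7, 32.4 and 27.4 CPM against 0.413, 0.797 and 1.04 CPM, with log2 fold changes of -2.52 ± 0.47 (adjusted p = 0.0012) and -4.94 ± 0.54 (adjusted p = 6.9e-07). LOX1, which oxygenates fatty acids, was at 230, 254 and 258 CPM against 62.6, 75.4 and 39.0 CPM in chloride. The groups stood well apart and its log2 fold changes were -1.80 ± 0.26 (adjusted p = 7.7e-05) and -1.83 ± 0.26 (adjusted p = 2.5e-05). The inducible chaperone gene HSP90.1 was at 17.9, 29.5 and 24.8 CPM against 3.54, 9.73 and 1.95 CPM in chloride, and in nitrate at 26.4, 38.8 and 29.1 CPM against 8.33, 5.62 and 6.23 CPM. It too separated fully, by -1.98 ± 0.38 (adjusted p = 0.0014) and -1.78 ± 0.37 (adjusted p = 0.0015).

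A few members ran the other way and were higher in chl1-5. AT3G05727, a gene whose function is not named here, was at 28.3, 42.3 and 35.9 CPM in chl1-5 and 8.51, 11.0 and 11.9 CPM in the septuple mutant in chloride. In nitrate it was at 54.0, 26.7 and 37.2 CPM against 13.6, 13.1 and 14.3 CPM. Every chl1-5 library lay above every septuple library, by 2.05 ± 0.25 (adjusted p = 6.1e-06) and 1.95 ± 0.25 (adjusted p = 4.9e-06) on the log2 scale. AT1G30730, a berberine bridge enzyme-like gene, was higher by 1.08 ± 0.31 (adjusted p = 0.029) and 1.11 ± 0.31 (adjusted p = 0.014). It missed the threshold without septuple replicate 2, septuple replicate 3 or chl1-5 replicate 1 in chloride (adjusted p of 0.0721 to 0.16), and without either mutant's replicate 2 in nitrate (0.0604 and 0.0828). AT5G44380 of the same family was lower instead, by -2.22 ± 0.23 (adjusted p = 6.9e-07) and -1.32 ± 0.22 (adjusted p = 0.00018).

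Among signalling genes of jasmonate, ethylene and salicylate, JAZ1, JAZ6 and JAZ10 were not called in chloride or nitrate. They were 3 of the 7 genes at 5 CPM or more with a jasmonate-zim product name, which does not cover every JAZ gene at that level. JAZ1 had log2 fold changes of -0.36 ± 0.26 (adjusted p = 0.40) and -0.44 ± 0.26 (adjusted p = 0.26). EDS5, which exports salicylate precursor from the chloroplast, was at 29.8, 32.3 and 25.2 CPM in the septuple mutant and 18.2, 19.2 and 19.7 CPM in chl1-5 in chloride. Its groups did not overlap, but it was not called (-0.34 ± 0.27, adjusted p = 0.45). WRKY18 was called lower in nitrate (-0.96 ± 0.27, adjusted p = 0.014), where it was at 44.9, 38.6 and 33.9 CPM in chl1-5 against 80.3, 139 and 92.5 CPM. ACS11, an ACC synthase of ethylene synthesis, was called in nitrate as well (-0.80 ± 0.26, adjusted p = 0.032), at 9.20, 6.89 and 8.15 CPM against 18.6, 21.0 and 17.6 CPM. The call of WRKY18 was lost without septuple replicate 2 or chl1-5 replicate 3 (adjusted p of 0.119 and 0.0662). That of ACS11 was lost without any of 5 libraries, all but chl1-5 replicate 1 (adjusted p of 0.06 to 0.122). PEPR1, receptor of the Pep danger peptides, its ligand precursor PROPEP1 and the ubiquitin ligase PUB22 were called in neither salt.

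The lists of pathway genes below are read beside all genes tested, of which 4.78% were lower and 4.93% higher in chl1-5 than in the septuple mutant in chloride and 8.15% and 9.89% in nitrate. Of 24 jasmonate genes 3 were members, and among the 23 tested 3 were lower and 0 higher in chl1-5 than in the septuple mutant in chloride, and 4 and 0 in nitrate. Of 15 salicylate genes 1 was a member, and 5 were lower in chloride and 6 in nitrate with 0 higher. Detoxification genes had 2 members of 17, with 4 lower and 2 higher of 16 tested in chloride and 5 and 2 in nitrate. Of 10 WRKY genes 1 was a member, and lower and higher calls were equal, 2 and 2 in chloride and 3 and 3 in nitrate. The heat, hypoxia and ethylene lists each held 1 member, and 0 genes of these 7 lists were called for nitrate against chloride in either mutant. The 5 lists of cell type markers held 0 members, and a list of touch, wounding and rapid stress genes held none either.

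Families here and above were read from product names in the annotation, which can miss genes of a family, as for JAZ. By family, shares of the loci at 5 CPM or more that were members were 42.9% for genes with a jasmonate-zim product name (3 of 7) and 35.3% for cysteine and histidine-rich C1 domain proteins (6 of 17). For berberine bridge enzyme-like proteins the share was 29.4% (5 of 17), and for NAC factors 20.8% (5 of 24). The shares were 4.38% for protein kinases (24 of 548) and 1.7% for ribosomal proteins (5 of 295), against 2.56% of all such loci. They were 25% for cytochrome c oxidase proteins (4 of 16) and 18.8% for mannose-binding and jacalin lectins (3 of 16). For cytochromes P450 the share was 1.01% (1 of 99). Families were picked after the members were seen, and these shares carry no test. Along the chromosomes, 31 members lay in 16 pairs with no other locus at 5 CPM or more between them, among them GSTF6 with GSTF7 and FAMT with AT3G44870.

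In protoplasts, 325 of the 364 members passed the filter on low counts among 19311 genes tested, and 31 of the 39 that did not had at most 3 counts in every control library. The members' sum was 22956 and 22998 CPM in the control of NLP1, NLP2, NLP3, NLP5, NLP8 and NLP9, above any seedling library. It was 24114 to 25720 CPM in the control of NLP4 and NLP6 and 31117 to 32841 CPM in that of NLP7. With NLP9 it was 17161 to 17574 CPM, in the libraries labelled NLP5 16372 to 18136 CPM, of which the higher is the one that held NLP8, and with NLP1 22721 to 23287 CPM. The libraries labelled NLP9 and NLP5 were below their control, while the NLP1 libraries lay on either side of theirs. The transcript of the expressed NLP was itself up to 121200 CPM in a library, which lowers the CPM of the rest, and fold changes below use TMM scaling.

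NLP9 gave the most calls: 76 members were lower and 22 higher than the control by edgeR (23.4% lower), where 11.5% of all genes were lower and 7.79% higher. For the group labelled NLP8, 1 library of which held NLP5, the counts were 68 and 8 (20.9% lower), against 8.05% and 2.86%. The group labelled NLP5, 1 library of which held NLP8, had 62 and 8 (19.1% lower), against 7.73% and 2.87%, and NLP2 58 and 20 (17.8% lower), against 7.71% and 6.61%. For these 4 groups, which share a control, the members' lower share was above that of all genes. The medians were -0.17, -0.10, -0.10 and -0.13 on the log2 scale. By transcript, the groups labelled NLP5 and NLP8 had the same content, 1 library of NLP5 and 1 of NLP8 each. Their similar results are therefore not separate evidence for different NLPs. NLP7, with a control of its own, had 38 lower and 11 higher (11.7% lower), against 3.17% and 6.45%, and a median of -0.19.

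Counts were small elsewhere. The group labelled NLP6 had 17 members lower and 3 higher (5.23% lower), against 2.04% and 2.02% of all genes. The group labelled NLP4 had 10 and 10 (3.08% lower), against 1.71% and 1.75%. NLP3 had 9 and 6 (2.77% lower), against 1.61% and 1.18%. NLP1 had 1 and 5 (0.308% lower), against 0.611% and 0.974%, and a median of 0.03. Differences between the NLPs were not tested, and the depth and level of the expressed NLP differed between them.

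With 2 libraries a group, the counts depended on single libraries. NLP names in these counts are those of the labels. The library left alone in its group held NLP5 without NLP8 replicate 1, NLP4 without NLP6 replicate 2 and NLP1 without NLP4 replicate 2. The control shared by NLP1, NLP2, NLP3, NLP5, NLP8 and NLP9 was 1 summed sample and was never left out. Any peculiarity of it would enter each of those comparisons. Members called lower with NLP2 became 30 and 33 without replicate 1 or 2 of NLP2, and those with NLP8 29 without its replicate 1. With NLP5 they became 29 without the library labelled NLP5 replicate 2, and with NLP9 46 without replicate 1. With NLP7 they ranged from 7 without NLP7 replicate 1 to 23 without NLP7 replicate 2, and were 12 and 18 without control replicates 1 and 2. With NLP6 they were 0 and 2 without control replicate 1 or 2, 2 without NLP6 replicate 1 and 21 without replicate 2. With NLP4 they were 1 and 1 without a control replicate, 33 without the library labelled NLP4 replicate 1 and 1 without replicate 2. With NLP3 they were 3 and 2 without replicate 1 or 2, and with NLP1 0 and 0. Shares of all genes called without each library are not given, so these counts do not separate members from all genes. With all 4 libraries that went against their label left out, which reduces 4 groups to 1 library assumed to vary like the others, the counts lower for NLP1 to NLP9 were 24, 94, 37, 55, 74, 34, 87, 97 and 104. For NLP1, NLP2, NLP3, NLP7 and NLP9, which kept 2 libraries, the counts higher were 34, 31, 33, 21 and 40. For NLP1 more members were thus higher than lower. The shares higher for these NLPs were 10.5%, 9.57%, 10.2%, 6.48% and 12.3% of members. Of all genes they were 7.19%, 14.8%, 7.46%, 13.3% and 15%. As shares, 7.41% of members and 7.94% of all genes were then lower with NLP1, 11.4% and 8.7% with NLP3, 17% and 12.1% with NLP4 and 10.5% and 4.18% with NLP6. For NLP2, NLP5, NLP7, NLP8 and NLP9 the members' shares were 29%, 22.8%, 26.9%, 29.9% and 32.1%, against 16.2%, 10.6%, 10.3%, 14.3% and 18% of all genes.

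**Figure D4:**
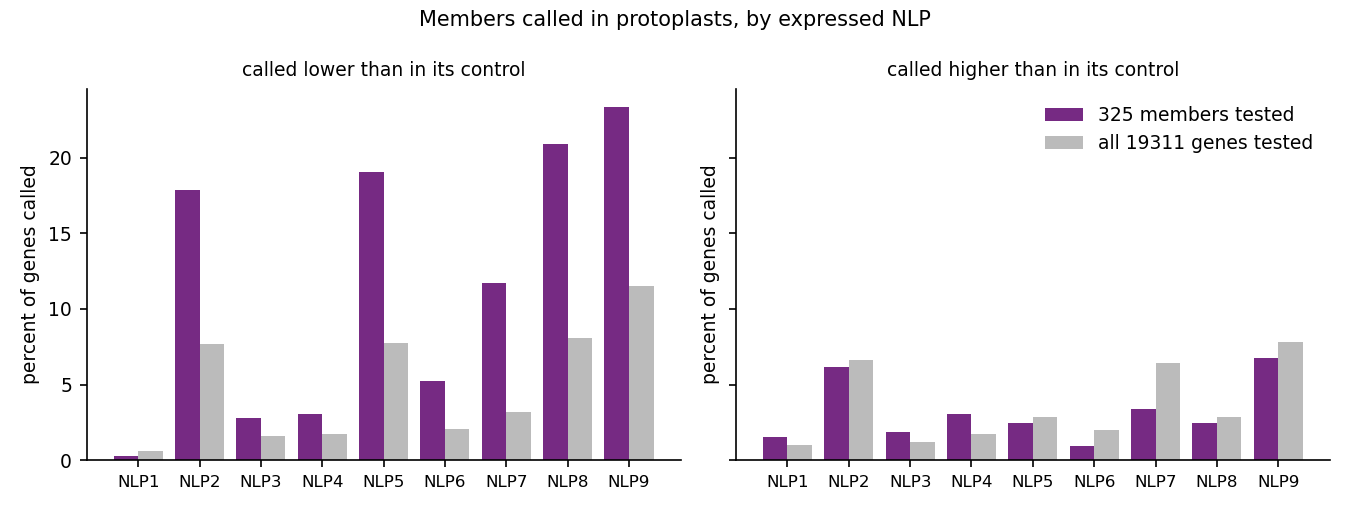
Percent of the 325 tested members and of all 19311 genes tested that were called lower or higher than the control, for the groups labelled NLP1 to NLP9. Groups labelled NLP4, NLP5, NLP6 and NLP8 each hold 1 library of another NLP. The members' share lower is 23.4% for NLP9 and 0.308% for NLP1, where 11.5% and 0.611% of all genes were lower.

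ABCG37, a plasma membrane transporter that exports phenolics from roots, was called lower in 8 of the 9 groups, some of which share a control and 4 of which hold a library of another NLP. It was at 217 and 215 CPM in the 2 libraries of the shared control, 83.9 and 104 CPM with NLP1, 68.7 and 63.2 CPM with NLP2, and 46.0 and 48.7 CPM with NLP3. With NLP9 it was at 30.4 and 34.5 CPM, a log2 fold change of -2.75 ± 0.27 (adjusted p = 2.6e-05). With NLP7 it was at 356 and 385 CPM against 492 and 641 CPM, which was not called (-0.66 ± 0.23, adjusted p = 0.083). In each of these comparisons all NLP libraries lay below all control libraries.

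The lectin gene PP2-A5 was at 120 and 126 CPM in the shared control and 34.2 and 43.2 CPM with NLP2, lower by -1.60 ± 0.15 on the log2 scale (adjusted p = 3.7e-05). With NLP1, at 105 and 88.9 CPM, it was not called (adjusted p = 0.22). AT1G30700, a berberine bridge enzyme-like gene, was at 136 and 145 CPM in that control and 37.3 and 40.7 CPM with NLP9 (-1.87 ± 0.21, adjusted p = 6.6e-05). AT5G55050, a GDSL-type esterase or lipase, was at 1143 and 1099 CPM in the control and 202 and 194 CPM with NLP9 (-2.52 ± 0.37, adjusted p = 0.00038). For all 3 the groups stood apart.

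Of the jasmonate repressors, JAZ6 was at 195 and 203 CPM in the shared control and 93.5 and 96.7 CPM with NLP9 (-1.09 ± 0.14, adjusted p = 0.00015). It was also lower with NLP2, NLP5, NLP6, NLP7 and NLP8, and not called with NLP1, NLP3 or NLP4. JAZ1 was at 487 and 470 CPM and was lower with NLP2, NLP5, NLP8 and NLP9, for example at 261 and 296 CPM with NLP2 (-0.70 ± 0.14, adjusted p = 0.0055). WRKY18, at 151 and 146 CPM in the control, was lower in the same 4 groups. It was at 73.8 and 82.0 CPM, for example, in the libraries labelled NLP8 (-0.93 ± 0.15, adjusted p = 0.0013). For these genes the groups labelled NLP5 and NLP8, which held the same NLPs, are not separate cases. MYB15 was at 231 and 228 CPM in the control and 84.6 and 85.5 CPM with NLP9 (-1.45 ± 0.34, adjusted p = 0.0082). GSTF6, at 3203 and 3167 CPM in the control, was lower with NLP9 by -0.86 ± 0.20 (adjusted p = 0.008), or 0.0562 without NLP9 replicate 2.

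Other members were higher with NLPs. AT3G59350, a protein kinase gene, was at 75.2 and 69.2 CPM in the shared control, 134 and 132 CPM with NLP1 and 120 and 133 CPM with NLP2. It was called higher in each of the 9 groups, 4 of which hold a library of another NLP than their label, by 0.57 to 0.89 on the log2 scale, and no control library overlapped an NLP library. The calls with NLP1, NLP3 and NLP8 were lost without either library of that NLP (adjusted p of 0.0533 to 0.155), and that with NLP6 without either control replicate or NLP6 replicate 1 (0.063 to 0.0885). ANAC087, a NAC factor of programmed cell death in the root cap, was at 11.1 and 14.2 CPM in that control and 35.5 and 34.1 CPM with NLP3 (1.57 ± 0.19, adjusted p = 0.00049). CYP82C2 was under the floor of 3 counts in both libraries of the shared control, at 0.118 and 0.197 CPM, and at 7.46 and 6.63 CPM with NLP9, where it was called higher (adjusted p = 0.002). HSP90.1, at 781 and 791 CPM in the control, was called higher with NLP2 at 1458 and 1706 CPM (1.08 ± 0.33, adjusted p = 0.041), a call lost without either NLP2 library (adjusted p of 0.0732 and 0.135).

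**Figure D5:**
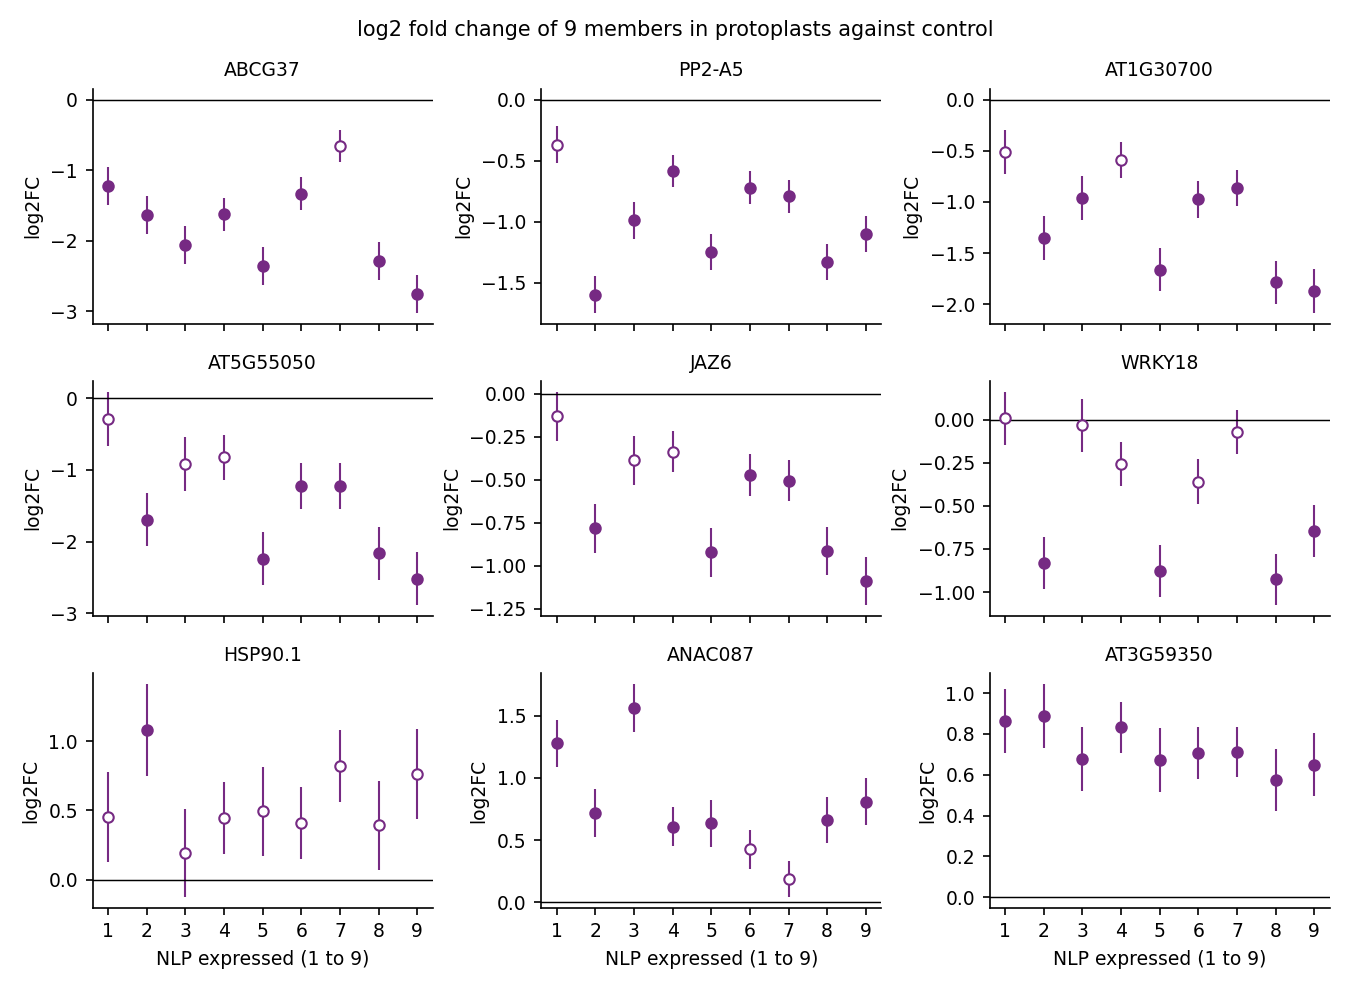
Log2 fold change against the control (points, with SE as bars) of 9 members for the groups labelled NLP1 to NLP9, filled where the adjusted p was under 0.05. Groups labelled NLP4, NLP5, NLP6 and NLP8 each hold 1 library of another NLP. ABCG37 runs from -0.66 with NLP7 to -2.75 with NLP9, and AT3G59350 from 0.57 to 0.89.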

How the data were processed

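RNA was sequenced from 18 seedling and 24 protoplast libraries (NEBNext Ultra II, per the labels' protocols). The deposited files held raw read counts per gene, and the submitters' processing notes name TopHat2 2.1.1, HTSeq 0.6.1, featureCounts, the build TAIR10 and FastQC 0.11.5, with no strand setting given in the sources used here, so overlapping genes cannot be told apart. The 5 summary lines that HTSeq adds to a file were left out of totals. The authors also deposited 12 tables of their comparisons with log2 fold changes and p-values, of which only calls and medians of the members are quoted.

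CPM was computed over each library's gene total. Differences were tested on the counts with edgeR 4.0.16 (R 4.3.3) by its quasi-likelihood test with TMM scaling, edgeR's filter on low counts and Benjamini-Hochberg adjustment over all genes tested, with a threshold of 0.05. The 18 seedling libraries were fitted together (21229 genes, 12 residual degrees of freedom), as were 23 protoplast samples (19311 genes, 11 degrees of freedom). Both libraries of the control shared by 6 NLPs were summed because they differed by about the sampling noise, where separate fitting had been planned. SE is the fold change divided by the square root of F. Scripts were tested on simulated data, using pandas 2.3.3, numpy 2.4.6 and matplotlib 3.10.9 in Python 3.11.15. Alternatives were DESeq2 1.42.0, no filter on low counts, each comparison fitted alone, leaving out each library, all 24 protoplast libraries as separate samples, and a replicate block. Replicate numbers did not pair samples: same-numbered chloride and nitrate libraries deviated with correlations of -0.06, 0.39 and -0.489 for wild type, 0.319, 0.181 and 0.018 for the septuple mutant, and -0.126, -0.191 and 0.201 for chl1-5.

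The members, gene lists and tests were chosen with earlier results of these data known. Genes named were the 12 lowest wild-type ratios, calls and extremes in the mutants, members of the lists, the 8 called most often in each direction with NLPs and those nearest the thresholds, not all of them printed. Families, LOX1, PEPR1, PROPEP1, PUB22, AT1G26420, AT5G44380, GSTU6 and GSTU10 were picked after their values were seen. Promoters and gene positions came from RefSeq TAIR10.1.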

Additional observations from a re-analysis of the deposited data

How the results depend on the processing

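Members called in the septuple mutant for nitrate against chloride stayed at 0 in every alternative, and from 0 to 0 without each library. For chl1-5 the count was 1 with DESeq2, 4 without a filter on low counts and 0 to 2 without each library, and for the difference between the mutants' nitrate effects 2 without the filter and 0 to 0 without each library. For chl1-5 against the septuple mutant, 55 members were called in chloride, 30 when those groups were fitted alone and 30 to 83 without each library, and in nitrate 83 became 109 when those groups were fitted alone and 36 to 87 without each library. With DESeq2 the total called was 11 for NLP1, 33 for NLP4 and 33 for NLP6, against 6, 20 and 20. Without the filter it was 22 for NLP1, 37 for NLP3, 47 for NLP4, 48 for NLP6 and 87 for NLP7, against 6, 15, 20, 20 and 49. With all 24 protoplast libraries as separate samples it was 37 for NLP1, 118 for NLP2, 49 for NLP3 and 115 for NLP8, against 6, 78, 15 and 76. Without the libraries against their label it was 58, 125, 70, 87, 42, 108 and 122 for NLP1, NLP2, NLP3, NLP4, NLP6, NLP7 and NLP8. Without each library it ranged from 1 to 1 for NLP1, 42 to 44 for NLP2, 4 to 5 for NLP3, 2 to 52 for NLP4, 31 to 62 for NLP5, 0 to 36 for NLP6, 14 to 27 for NLP7, 32 to 66 for NLP8 and 59 to 60 for NLP9. The rule took 108 loci after TMM scaling, 710 at 1 CPM, 214 at 10 CPM and 321 to 1431 without each wild-type library. The median log2 fold change of the members ran from 0.04 to 0.20 in the septuple mutant and -0.10 to 0.17 in chl1-5 without each library. For all of these the cause was not tested, and the counts are given here without the shares of all genes called.

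With the replicate number as a block, 50 members were lower and 5 higher in chloride, and 78 and 4 in nitrate, for chl1-5 against the septuple mutant. Pairing by number in the 24 protoplast libraries gave 31 members called for NLP1 and 40 for NLP3. The difference between an NLP group's replicates was compared with that between its control's replicates over genes. Correlations of these differences ran from -0.026 to 0.079. Replicates of the control that was summed differed by about the sampling noise, so correlations with that control cannot show whether replicates were paired.

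Of the named genes, GSTF6, GSTF7, GPT2, JAL23, HSP90.1 and AT3G05727 kept their calls between the mutants in every alternative. GSTU12 lost its call in nitrate in 9 of them, with an adjusted p of up to 0.237, and CYP82C2, WRKY18, ACS11 and AT1G30730 lost theirs in at least 1. Low counts kept 39 members out of the protoplast tests. Whether depth or the spread between libraries limits the members near 5 CPM in seedlings was not tested.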
